A study of Mus musculus with 4 samples.

Results

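The immunoglobulin constant-region genes Ighm, Ighd, Igkc, Iglc1, Iglc2 and Iglc3 were followed as unique molecular identifiers (UMIs, 1 per captured RNA molecule) in single mouse bone marrow cells. The 6 genes were taken by symbol from the 32285 genes of the count matrices, and all 6 had UMIs in all 4 libraries. The libraries were made from CD45.2+ bone marrow 10 weeks after transplantation with a 5′ single-cell kit, and assembled antigen-receptor contigs of the same cells were used beside the counts. The study compared marrow with and without MLL3 and MLL4 (genes Kmt2c and Kmt2d), histone methyltransferases of the COMPASS type, in blood-forming progenitors. There were 4 groups with 1 library each: from the Kit+ gate a control, an Mll3/4 deleted and an Mll3/4SI library (the labels do not expand SI), and from the B220lo gate a control library. The labels give neither the number of mice behind a library nor the promoter or Cre used for the deletion.

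With 1 library per group no difference between groups could be tested. Intervals are exact 95% Poisson intervals for UMIs and exact 95% Clopper-Pearson intervals for shares of cells, and both cover counting error only. Levels are on the counts-per-million scale (CPM): UMIs of a gene relative to all UMIs of the cells named.

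An antibody heavy chain begins as a V, D and J segment joined to the mu constant gene Ighm; Ighd, just downstream, is reached by alternative splicing of the same transcript, more so as B cells mature. Pro-B cells rearrange the heavy chain, pre-B cells pair it with the surrogate light chain made of Vpreb1 and Igll1, and light-chain genes are rearranged after that, in the mouse mostly Igkc (kappa) and less often Iglc1 to Iglc3 (lambda). Unrearranged constant genes can also be transcribed from promoters of their own, as germline or sterile transcripts, so a constant-region UMI alone does not show a rearranged chain.

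Because the lambda results turn on telling near-identical genes apart, the opening 150 bases of the 3 lambda constant exons are shown from GENCODE M21 transcripts (GRCm38), in the sense direction, followed by the opening 90 bases of Ighm, Ighd and Igkc, the stretch that a 5′ read enters once past the J segment. In Iglc3 and Iglc1 capitals mark bases that differ from Iglc2, and in Iglc2 they mark bases at which either of the others differs. The stretch of Iglc2 lies at chr16:19198703-19198852, that of Iglc3 at chr16:19065532-19065681 and that of Iglc1 at chr16:19061922-19062071, all on the minus strand; Ighm is read from chr12:113422641-113422730 and Ighd from chr12:113416235-113416324, both minus, and Igkc from chr6:70726435-70726524, plus. Each starts at the first base of its constant exon except Iglc2, which starts at base 2.
Iglc2: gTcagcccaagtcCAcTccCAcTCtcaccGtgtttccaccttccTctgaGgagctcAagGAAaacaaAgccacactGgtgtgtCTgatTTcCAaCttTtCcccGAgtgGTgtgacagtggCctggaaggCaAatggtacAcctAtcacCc
Iglc3: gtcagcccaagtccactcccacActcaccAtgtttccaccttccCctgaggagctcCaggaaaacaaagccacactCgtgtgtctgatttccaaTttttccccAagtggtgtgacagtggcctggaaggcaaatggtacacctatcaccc
Iglc1: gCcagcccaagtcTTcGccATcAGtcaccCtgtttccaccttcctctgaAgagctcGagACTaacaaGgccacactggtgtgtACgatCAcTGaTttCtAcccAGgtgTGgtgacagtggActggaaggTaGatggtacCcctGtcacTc
Ighm: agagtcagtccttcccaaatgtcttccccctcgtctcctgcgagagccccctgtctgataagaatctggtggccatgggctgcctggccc
Ighd: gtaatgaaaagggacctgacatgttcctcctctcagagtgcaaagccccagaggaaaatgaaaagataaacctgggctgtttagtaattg
Igkc: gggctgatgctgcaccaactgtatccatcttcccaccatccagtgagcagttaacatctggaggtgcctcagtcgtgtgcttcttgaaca

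Within these 150 bases Iglc3 differed from Iglc2 at 7 and Iglc1 at 34. Over 314 aligned coding bases Iglc2 and Iglc3 were 96.5% identical, whereas Iglc1 was 73.2% identical to Iglc2 and 73.9% to Iglc3. Of the 50-base windows of Iglc2, 38 of 266 occurred unchanged in Iglc3, and of the 90-base windows 0 of 226 did. The split of UMIs between Iglc2 and Iglc3 is therefore uncertain for short reads (the read length is not given in the sources used here), and summed Iglc1-3 UMIs are given beside the single genes. Coding lengths were 320 bases for Igkc and 314 to 317 for the lambda genes, and light-chain levels are given without a length correction. Whether 5′ reads capture Igkc and the lambda constants alike was not tested. Ighm (1427 coding bases) and Ighd (872) are compared only across groups of cells.

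In the annotation Ighm (ENSMUSG00000076617, chr12:113418558-113422730, minus) has 6 coding exons and Ighd (ENSMUSG00000104213, chr12:113406604-113416324, minus) has 5. Igkc (ENSMUSG00000076609, chr6:70726435-70726966, plus), Iglc1 (ENSMUSG00000105906, chr16:19061618-19062071, minus), Iglc2 (ENSMUSG00000076937, chr16:19198396-19200351, minus) and Iglc3 (ENSMUSG00000105547, chr16:19065230-19065681, minus) have 1 coding exon each. Igkc lies within the span of Gm30211 on the same strand, with 0 exon bases shared. Iglc2 shares 38 of its 612 exon bases with the J segment Iglj2 on the same strand. Iglc1 and Iglc3 lie within the span of 2010309G21Rik on the opposite strand, and Iglc3 shares 93 of its 452 exon bases with it. The strand setting of the counting is not given in the sources used here, so reads of Iglc3 and 2010309G21Rik cannot be told apart over those bases.

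The 4 libraries held 12205 to 16861 barcodes and 85445426 to 166327773 UMIs, and 51679 of 56502 barcodes were kept. Pairs of libraries shared 214 to 345 barcodes. Clusters called B lineage-like from marker genes held 42 control Kit+, 12847 deleted, 22 SI and 12215 control B220lo cells. Transcripts of Cd79a, a signalling partner of surface antibody, stood at 3.78, 3542, 3.41 and 1989 CPM in that order, and those of Kit at 219.7, 358.5, 253.0 and 16.1 CPM. Kmt2c stood at 58.1, 51.8, 62.7 and 144.5 CPM, and 5′ counts do not resolve a deletion inside a gene. Xist was at 0.350 CPM in deleted Kit+ and at 423 to 541 CPM in the other 3 libraries, with Y-linked transcripts the other way round, so genotype, sex-linked transcripts and library cannot be told apart. Sort gate is added to these wherever deleted Kit+ is set beside control B220lo.

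Across kept cells of whole libraries all 6 members were highest in control B220lo. Ighm stood at 42.7 CPM in control Kit+ (5954 UMIs), 331.5 in deleted Kit+ (328.2 to 334.9; 36904 UMIs), 16.4 in SI Kit+ (2480 UMIs) and 771.7 in control B220lo (59561 UMIs). Ighd stood at 0.151, 8.33, 0.318 and 49.4 CPM. The order from high to low was control B220lo, deleted, control Kit+, SI for Ighm, while for Ighd the last pair was the other way round, on 21 and 48 UMIs.

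Igkc stood at 1.28 CPM in control Kit+, 0.216 in deleted, 2.94 in SI and 458.7 in control B220lo. The Kit+ values rested on few cells: 165 of the 178 control Kit+ UMIs came from 1 cell, 255 of the 444 SI UMIs from 1 cell, and the deleted library had 24 UMIs in all. In control B220lo the level was 189.8 CPM without the cells that held at least 10 UMIs of Igha, the constant gene of IgA. Summed Iglc1-3 stood at 1.89, 1.28, 2.64 and 713.9 CPM in the same order. By share of cells, Igkc was found in 0.0905%, 0.124% and 0.122% and Iglc1-3 in 0.271%, 0.131% and 0.235% of control, deleted and SI Kit+ cells, although 12847 of the 13747 kept deleted cells were B lineage-like. No order among the Kit+ libraries is read from the Igkc levels, since 1 cell held most of the control and SI UMIs. In bulk sums such as these, fewer cells of a type and less RNA per cell cannot be told apart, and the values below are therefore given by cell state.

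B lineage-like cells were sorted by their productive contigs. In the deleted library 9851 cells (76.7%) had no contig, 2963 (23.1%) had a heavy chain only, 16 had heavy and kappa, 4 heavy and lambda, 12 kappa only and 1 lambda only. In control B220lo 3590 cells (29.4%) had none, 1698 (13.9%) had a heavy chain only, 5077 (41.6%) had heavy and kappa, and 1063 (8.70%) had heavy and lambda. Median UMIs per cell were 6255 and 6298 in deleted cells without a contig and with a heavy chain only, and 2587, 3051, 3049 and 2575 in the 4 control B220lo states. Shares of cells are therefore given after thinning each cell to 2000 UMIs, with the unthinned share in parentheses. Thinning left out 345 and 84 deleted cells, and 974, 263, 519 and 220 control B220lo cells.

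**Figure D1:**
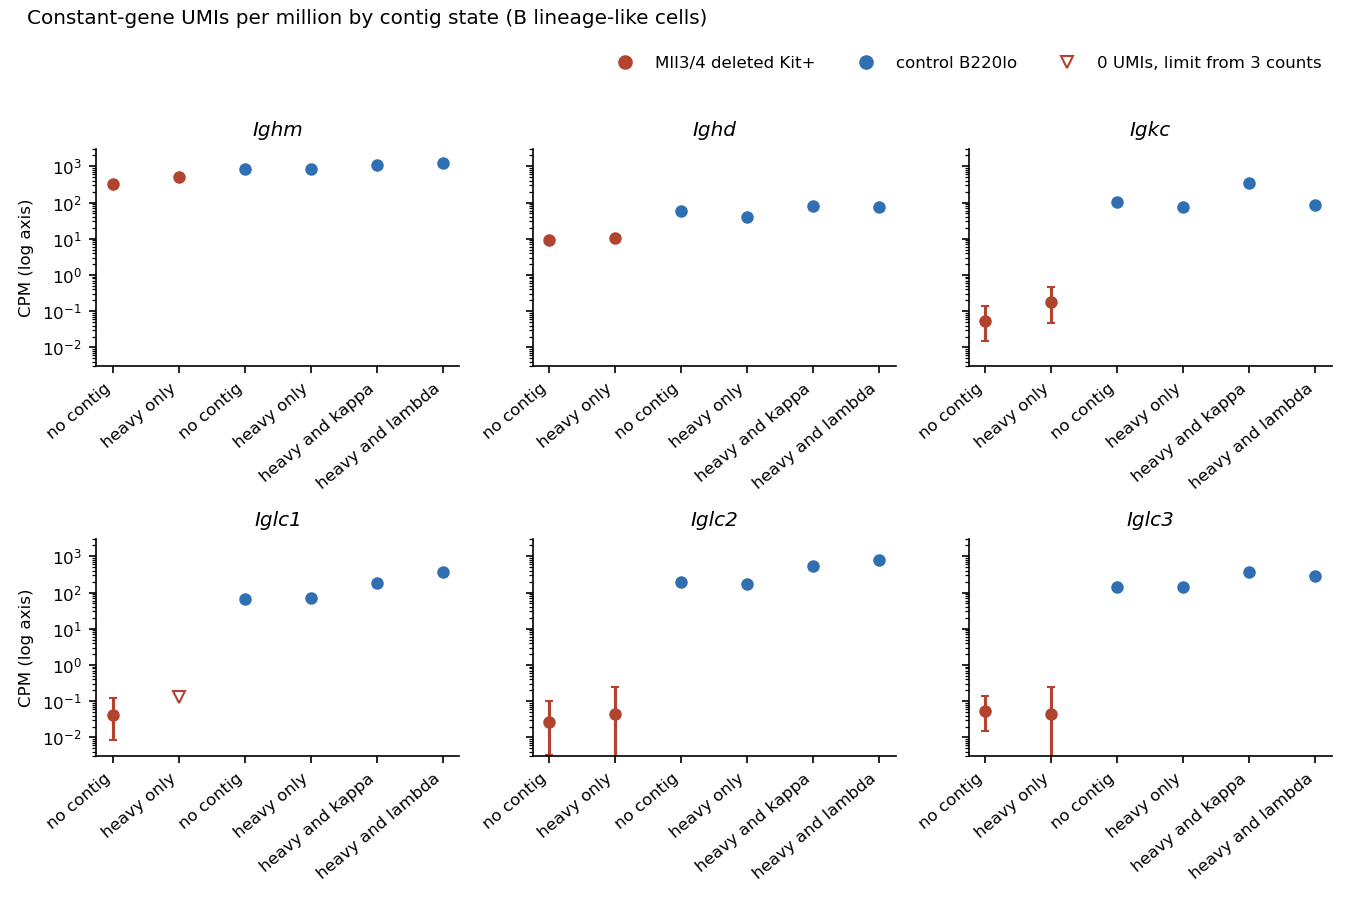
Level of each constant-region gene (CPM, log axis) in B lineage-like cells by contig state, 1 panel per gene, deleted Kit+ in red and control B220lo in blue; bars are exact 95% Poisson intervals, and the open triangle is the limit from 3 counts where 0 UMIs were seen. Ighm in deleted cells lies within 3-fold of control B220lo cells of the same contig state. The light-chain genes of deleted cells with no contig or a heavy chain only rest on 0 to 4 UMIs.

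Ighm, the mu heavy-chain constant gene, was found in deleted cells with and without an assembled contig. In deleted cells with no contig it stood at 328.7 CPM (324.6 to 332.9), in 48.0% of cells (81.1%), and in deleted cells with a heavy chain only at 509.8 CPM (500.5 to 519.2), in 64.5% (92.4%). Erythroid-like cells of the same library, which should lack the gene, held Ighm at 13.1 CPM, in 2.42% of cells (12.7%) at a median of 10887.5 UMIs, so the B lineage-like shares lie above this background. In control B220lo the level was 833.8 CPM (819 to 849) with no contig, 841.2 (823 to 860) with a heavy chain only, 1112.9 (1098.8 to 1127.1) with heavy and kappa and 1209.6 (1177 to 1243) with heavy and lambda. The no-contig and heavy-only intervals overlapped, and both light-chain states lay above them.

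Against control B220lo, deleted cells held Ighm at 0.394 of its level with no contig (0.386 to 0.403) and 0.606 with a heavy chain only (0.589 to 0.624). The compared cells lay in different clusters: deleted cells in clusters 0, 3, 6 and 19, control B220lo cells in clusters 1, 4, 12, 14, 21, 23 and 30, and a cluster mostly of 1 library may be that library. Of the control B220lo clusters, 23, 14 and 21 had the lowest Ighm levels: it stood at 573 CPM in cluster 23, 563 in cluster 14 and 522 in cluster 21, against 454, 329, 329 and 281 in deleted clusters 0, 3, 6 and 19. All 4 deleted clusters stood below all 7 control B220lo clusters. The plasma cell marker list, which includes the folding factor Mzb1, summed to 1618 CPM in deleted and 828 in control B220lo cells with no contig. Mzb1 stood at 1518 and 439 CPM, and so made up most of the deleted sum, and Xbp1 of that list at 90.4 and 49.9. Other genes of the list went the other way. Jchain stood at 0.0546 in deleted and 76.9 CPM in control B220lo, Irf4 at 5.43 and 234, Sdc1 at 3.82 and 23.5, and Prdm1 at 0.273 and 3.54. With a heavy chain only, the erythroid marker list summed to 132 CPM in deleted and 1745 in control B220lo cells. The part of these transcripts in the Ighm levels was not tested.

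The same sort gate in the control gave few B lineage-like cells. The 18 control Kit+ cells with no contig held Ighm at 420.6 CPM (306.8 to 562.8; 45 UMIs in 14 cells) and the 7 SI cells at 360 CPM (237 to 524; 27 UMIs in 6 cells). Both intervals include the deleted value. Among B lineage-like cells with no contig, a difference in Ighm between the Kit+ libraries was therefore not detectable at this depth. Ighv gene UMIs were far apart in the same cells: 93.5 CPM (44.8 to 171.9; 10 UMIs) in control Kit+ and 2560 (2211 to 2949; 192 UMIs) in SI, against 12124 in deleted cells with no contig. Granulocyte markers summed to 916 CPM (Mpo 365) in those control Kit+ cells and 158 in the deleted cells. Monocyte or dendritic markers summed to 869 and 207 CPM. Their part in these values was not tested.

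In deleted cells without a contig, heavy-chain V gene UMIs were present in 99.9% of cells after thinning (9850 of 9851 unthinned). Erythroid-like cells of that library held an Ighv UMI in 22.6% (75.4%), at 257 CPM against 12124. Per Ighm UMI there were 36.9 Ighv UMIs with no contig and 25.7 with a heavy chain only in the deleted library, against 2.02 and 2.59 in control B220lo. Genes of the Ighv1 family made up 94.6% and 84.9% of Ighv UMIs in the 2 deleted states and 47.3% and 48.5% in control B220lo. Ighv1-66 (18.6%), Ighv1-75 (12.1%) and Ighv1-23 (10.7%) led in deleted cells without a contig. Counts of Ighv genes include transcripts of unrearranged segments, which the counts do not tell apart from rearranged ones.

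Ighd, the delta constant gene, was low in deleted cells. It stood at 9.06 CPM (8.38 to 9.78) with no contig and 10.7 (9.39 to 12.1) with a heavy chain only, intervals that overlap. Control B220lo held 58.4 CPM (54.6 to 62.5) with no contig, 40.9 (37.0 to 45.1) with a heavy chain only, 78.6 (74.9 to 82.5) with heavy and kappa and 76.2 (68.1 to 84.9) with heavy and lambda. The last pair overlapped, and heavy-only cells stood lowest of the 4 control B220lo states. Relative to control B220lo of the same state, deleted cells held Ighd at 0.155 (0.140 to 0.172) and 0.262 (0.222 to 0.308).

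By contig state, Ighd was also lower in relation to Ighm from the same cells. For each 100 Ighm UMIs there were 2.76 Ighd UMIs (2.55 to 2.98) in deleted cells with no contig and 2.10 (1.84 to 2.38) in those with a heavy chain only. The control B220lo values were 7.01 (6.53 to 7.51), 4.86 (4.38 to 5.37), 7.07 (6.72 to 7.43) with heavy and kappa and 6.30 (5.61 to 7.05) with heavy and lambda. Heavy and kappa cells of control B220lo with a UMI of Ms4a1, the maturing B cell protein CD20, held 8.44 (7.92 to 8.98) and those without 5.49 (5.05 to 5.96). The same split in cells with no contig gave 8.84 (7.76 to 10.0) with and 6.44 (5.92 to 6.99) without, intervals that do not overlap. In heavy and lambda cells the intervals overlapped, at 6.37 (5.44 to 7.41) with and 6.21 (5.21 to 7.35) without. They also overlapped in heavy-only cells, at 6.15 (4.78 to 7.80) and 4.65 (4.15 to 5.19). Cells with heavy, kappa and lambda contigs held 7.55 (5.75 to 9.77) and 8.42 (5.91 to 11.7). Kappa-only cells held 8.14 (6.29 to 10.4) and 4.80 (3.37 to 6.65), and lambda-only cells 11.2 (6.76 to 17.6) and 5.99 (3.14 to 10.5). By cluster, Ighd ranged from 20.3 CPM in control B220lo cluster 14 to 177 in cluster 12, and from 7.70 to 24.7 CPM in the deleted clusters. These ranges overlap. The highest deleted cluster stood above cluster 14 in Ighd, although all deleted clusters stood below it in Ighm. The lower Ighd in relation to Ighm thus does not hold for every pair of clusters.

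Igkc, the kappa constant gene, was at the edge of detection in deleted cells. It had 4 UMIs in the 9851 cells with no contig (0.0546 CPM) and 4 in the 2963 heavy-only cells (0.178 CPM), against 1500 UMIs (102.2 CPM, 97.1 to 107) and 735 UMIs (75.3 CPM, 70.0 to 81.0) in control B220lo. The ratios of deleted to control B220lo were 0.000534 (0.000145 to 0.00137) and 0.00236 (0.000641 to 0.00606). In control B220lo, NK or T-like and granulocyte-like cells, which should lack the gene, held 29.0 and 33.1 CPM without cells with at least 10 Igha UMIs. The part of such background in the control B220lo levels and in these ratios was not tested. In the 16 deleted cells with heavy and kappa contigs Igkc had 9 UMIs in 4 cells, so the gene was countable in that library. Unlike the constant gene, Igkv genes had 6634 UMIs in deleted cells with no contig (90.5 CPM), in 10.3% of cells (19.6%). Erythroid-like cells of that library held an Igkv UMI in 0.806% (2.38%), at 9.25 CPM.

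Within control B220lo, Igkc was higher with a kappa contig, in part by construction because contigs and counts come from the same captured RNA. It stood at 345.8 CPM (337.9 to 353.8) in heavy and kappa cells, in 43.2% of cells (56.6%), and at 75.3 CPM in heavy-only cells, in 18.9% (31.1%), a ratio of 4.59 (4.26 to 4.96). The erythroid marker list summed to 1745 CPM in the heavy-only and 153 CPM in the heavy and kappa cells, and its part in this ratio was not tested. Heavy and lambda cells held 84.0 CPM (75.5 to 93.2), in 16.8% (23.7%). NK or T-like cells of the same library, which should lack the gene, held an Igkc UMI in 4.76% of cells (14.4%) at a median of 4972.5 UMIs, below each of these states. Their CPM of 226 rested on 5 cells with at least 10 Igha UMIs and was 29.0 without them. Without such cells the heavy and kappa level was 288 CPM and the heavy-only level 75.3. When B lineage cells were gated on UMIs instead of clusters, the heavy and kappa level was 866 CPM, and 57 plasma cell-like cells in that gate held 59.5% of its Igkc UMIs.

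The lambda constants behaved differently from Igkc: they were abundant in cells whose only light-chain contig was kappa. In heavy and kappa cells of control B220lo Iglc1, Iglc2 and Iglc3 stood at 182.8, 544.1 and 361.9 CPM, and summed at 1088.8 (1074.9 to 1102.9), in 61.0% of cells (68.5%). In heavy and lambda cells they stood at 362.8, 771.3 and 294.2 CPM, and summed at 1428 (1393 to 1465), in 72.7% (77.0%). NK or T-like cells held a lambda constant UMI in 10.3% (16.9%). By CPM, Iglc3 was thus higher in kappa than in lambda cells, while Iglc1 and Iglc2 were lower.

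Lambda V genes did not follow the same pattern. Iglv UMIs stood at 784 CPM in heavy and kappa and 11885 in heavy and lambda cells, or 0.720 and 8.32 Iglv UMIs for each lambda constant UMI. Of 3478 heavy and kappa cells with a lambda constant UMI, 1570 had no Iglv UMI. The Kit+ libraries showed this on few cells: all 18 control Kit+ cells with heavy and kappa contigs held lambda constants (146 UMIs) beside 2 Iglv UMIs, and all 10 such SI cells (80 UMIs) beside 1. Granulocyte markers summed to 6070 CPM in those SI cells (Mpo 3598) and 1138 in those control Kit+ cells, against 207 in control B220lo cells of that state, and their part in these values was not tested. In the deleted library 8 of 16 held 90 lambda constant UMIs beside 39 Iglv UMIs. As a share of light-chain constant UMIs, Igkc made up 24.1% (23.6 to 24.6) in heavy and kappa cells of control B220lo and 5.55% in heavy and lambda cells, whereas Igkv made up 91.0% and 8.78% of light-chain V UMIs. The Igkc share was 42.6% with the gate on UMIs. Heavy and kappa cells held 22.9 Igkv UMIs for each Igkc UMI, against the 8.32 Iglv UMIs above in heavy and lambda cells. Shares of constant UMIs are therefore not read as shares of light chains.

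Lambda constants were nearly absent from deleted cells. Those with no contig had 3, 2 and 4 UMIs of Iglc1, Iglc2 and Iglc3, from 3 cells, against 987, 2870 and 2108 in control B220lo, with ratios of 0.000609 (0.000125 to 0.00178), 0.00014 (1.69e-05 to 0.000505) and 0.00038 (0.000103 to 0.000975). In control B220lo, NK or T-like cells, which should lack these genes, held lambda constant UMIs in 114 of 674 cells. The part of such background in the ratios was not tested. Deleted heavy-only cells had 0 UMIs of Iglc1, which allows up to 0.133 CPM, and 1 each of Iglc2 and Iglc3. Among the 18 control Kit+ cells with no contig, Igkc and the lambda constants also had 0 UMIs, which allows up to 28.0 CPM, a limit above the deleted values.

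**Figure D2:**
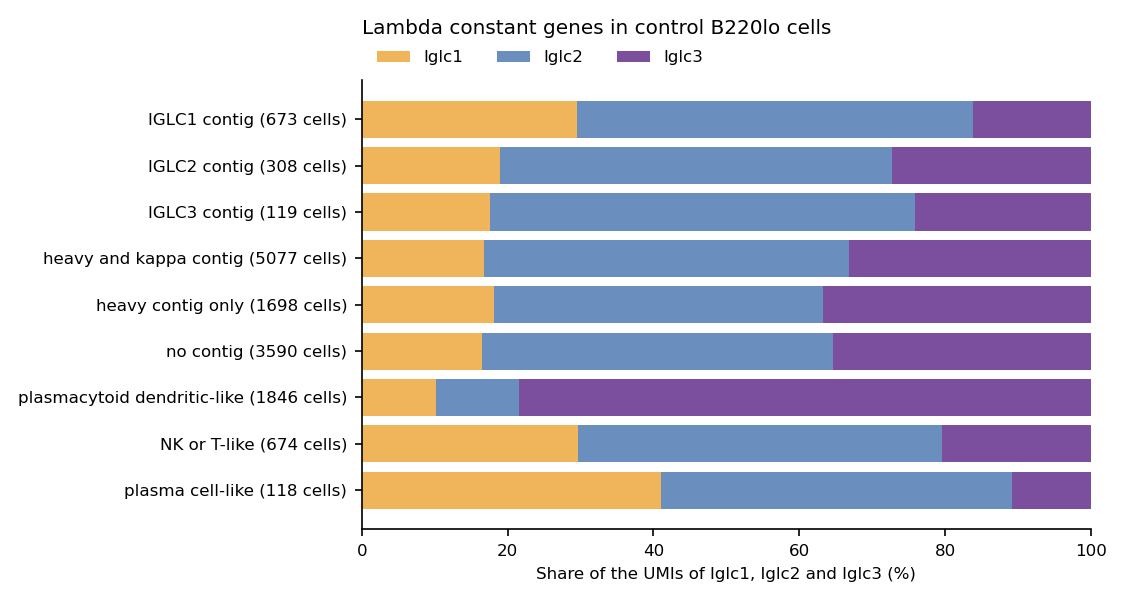
Share of lambda constant UMIs (percent) assigned to Iglc1, Iglc2 and Iglc3 in 9 groups of control B220lo cells, as stacked bars. Iglc3 makes up 78.4% in plasmacytoid dendritic-like cells, 33.2% in heavy and kappa cells and 10.8% in plasma cell-like cells.

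The lambda genes differed in which cells held them. In plasmacytoid dendritic-like cells of control B220lo, 78.4% (77.0 to 79.8) of 3381 lambda constant UMIs were Iglc3, against 33.2% (32.6 to 33.8) in heavy and kappa cells, 20.5% in NK or T-like and 10.8% in plasma cell-like cells. Iglc3 stood at 208 CPM there, in 29.1% of cells (44.4%), against 3.69% (7.57%) of NK or T-like cells, with Iglc1 at 26.8 and Iglc2 at 30.4 CPM. The ratio of the 3 genes thus differed between classes of 1 library. The intervals treat each UMI as independent, whereas a single kept cell of this library held up to 354 Iglc1 or 217 Iglc2 UMIs. The shares were not recomputed without such cells. Whether reads of 2010309G21Rik enter the Iglc3 count was not tested.

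The constant gene named on a lambda contig seldom dominated the counts of its cell. Among control B220lo cells with 1 lambda contig, no kappa contig and at least 5 lambda constant UMIs, the named gene held over 80% of the UMIs in 4 of 251 cells with IGLC1 contigs, 26 of 171 with IGLC2 and 0 of 59 with IGLC3. Iglc2 took the largest share in all 3 sets, at 54.3%, 53.9% and 58.4%. Iglj2, whose bases lie in the Iglc2 exons, had 0 UMIs in heavy and lambda cells of control B220lo. Whether J-segment reads enter the Iglc2 count was not tested. Iglc1 made up 29.5%, 18.9% and 17.6% of the lambda constant UMIs of cells with IGLC1, IGLC2 and IGLC3 contigs, but by level it was not highest with its own contig, at 366, 385 and 347 CPM.

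**Figure D3:**
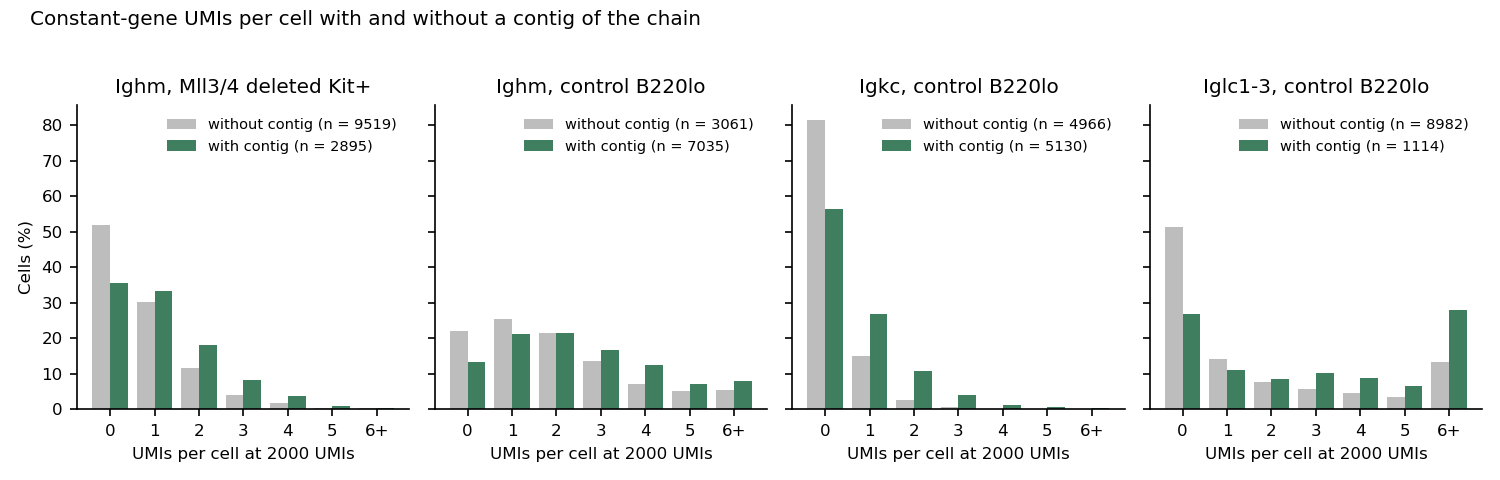
Share of B lineage-like cells (percent) by number of constant-region UMIs after thinning to 2000 UMIs per cell, for cells with and without a productive contig of that chain, in 4 panels (Ighm in deleted Kit+; Ighm, Igkc and Iglc1-3 in control B220lo). Cells without a contig are shifted to lower UMI numbers, and 48.0% of deleted cells without a heavy contig still hold Ighm.

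Constant-region UMIs were common in cells without a contig of the same chain. In the deleted library 8003 of 10758 Ighm-positive cells (74.4%) had no heavy contig, where 9864 of all 12847 B lineage-like cells had none. In control B220lo the shares without a contig were 32.6% for Ighm (3723 of 11432 cells), 34.7% for Igkc (1738 of 5002) and 84.5% for Iglc1-3 (5938 of 7026). A V gene UMI of the same chain was missing in 8.46% of those Ighm cells, 7.02% of those Igkc cells and 43.5% of those lambda cells. These shares are to be read beside their bases: of all 12215 B lineage-like cells of control B220lo, 4153 lacked a heavy, 6461 a kappa and 10818 a lambda contig, and of all its kept cells 89.3% held an Ighv, 91.9% an Igkv and 48.6% an Iglv UMI.

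Cells without a contig held fewer UMIs of the gene. Contigs and counts come from the same captured RNA of a cell, so part of this difference is fixed in advance. At 2000 UMIs, Ighm was found in 48.0% of deleted cells without and 64.5% of those with a heavy contig, and 3 or more UMIs in 6.31% and 13.1%. In control B220lo Ighm was found in 77.9% (89.6%) without and 86.8% (95.6%) with a heavy contig, Igkc in 18.4% (26.9%) and 43.6% (56.7%) by kappa contig, and Iglc1-3 in 48.6% (54.9%) and 73.1% (77.9%) by lambda contig. NK or T-like cells held an Ighm UMI in 27.5% (47.6%). Conversely, 43.3% of 5754 control B220lo cells with a kappa contig had 0 Igkc UMIs, 22.1% of 1397 with a lambda contig had 0 Iglc1-3 UMIs, and 4.38% of 8062 with a heavy contig had 0 Ighm UMIs. Within cells that had the contig, contig UMIs and gene UMIs correlated across cells (Spearman rho 0.463 for heavy, 0.546 for kappa, 0.704 for lambda). These cells share a library, and gene UMIs correlated with each cell's total UMIs at 0.458, 0.247 and 0.0686 in the same order.

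**Figure D4:**
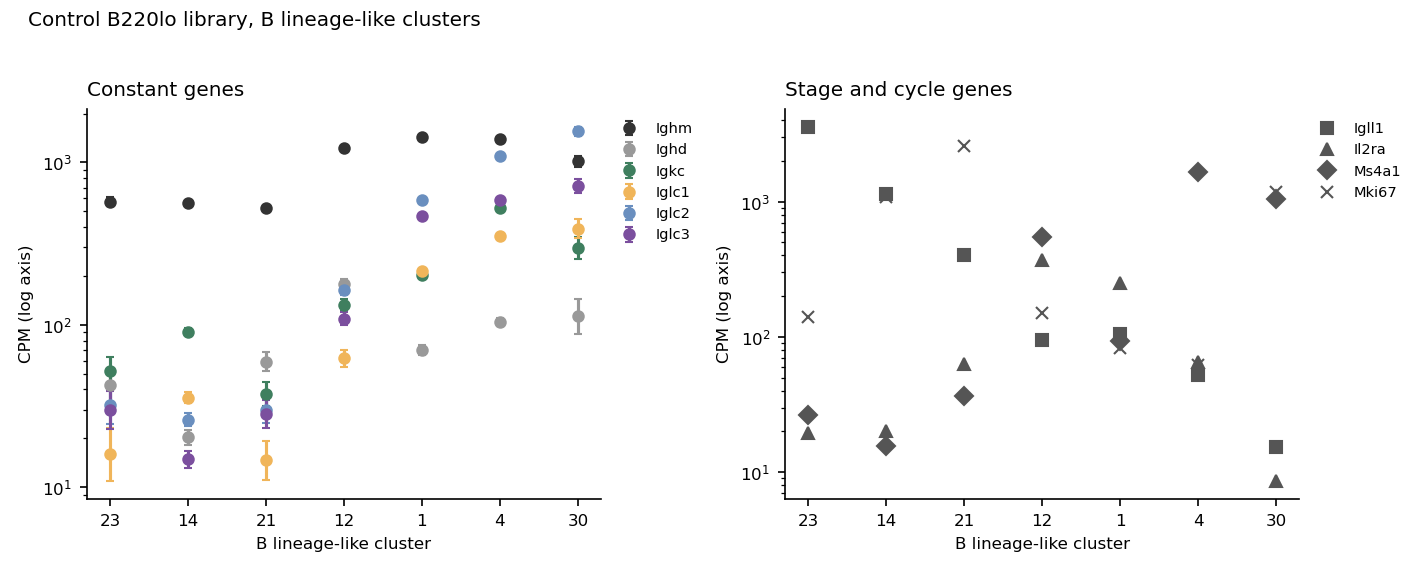
Levels (CPM, log axes) of the constant-region genes and of the stage genes Igll1, Il2ra, Ms4a1 and Mki67 in the 7 B lineage-like clusters of control B220lo. Clusters 23, 14 and 21 have the lowest Iglc2 levels (26.1 to 32.2 CPM) and cluster 30 the highest (1559 CPM).

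Among control B220lo clusters the light-chain constants were lowest in clusters 23, 14 and 21. Igll1, a surrogate light-chain gene, stood at 3591 CPM in cluster 23, where Igkc stood at 52.1 and Iglc2 at 32.2 CPM; Mki67, a proliferation marker, stood at 2580 CPM in cluster 21, with Igkc at 37.7 and Iglc2 at 30.1. The Igkc levels of clusters 23 and 21 are to be read beside the 29.0 CPM of NK or T-like cells without cells with at least 10 Igha UMIs. Ms4a1 stood at 1645 CPM in cluster 4, with Igkc at 526 and Iglc2 at 1095. High Mki67 did not always go with low levels: cluster 30 (58 cells) held Mki67 at 1179 CPM, Ms4a1 at 1049, Igkc at 297 and Iglc2 at 1559. Clusters were built from 2000 variable genes, with immunoglobulin and T-cell receptor genes left out. The stage genes were not left out, and these levels describe the clusters. Within heavy and kappa cells alone, those with an Ms4a1 UMI (2469) held summed Iglc1-3 at 1741 CPM (1716 to 1767) and those without (2608) at 507 (494 to 520), while Igkc stood at 460 (447 to 473) and 244 (235 to 253). Iglv differed little beside this, at 804 (787 to 822) and 766 (750 to 783) CPM.

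Set against all genes, the members stood out to different degrees. A gene was counted as higher or lower at 2-fold or more on the log2(CPM + 1) scale, with at least 100 UMIs in the higher group. Between deleted and control B220lo cells with no contig all 6 members were lower and 0 higher, where 12.2% of 11686 genes were lower and 13.6% higher. With a heavy chain only, 5 of 6 were lower (Ighm was under 2-fold), where 9.15% of 10339 genes were lower and 15.6% higher. Between heavy and kappa and heavy-only cells of control B220lo, Igkc and the 3 lambda genes were higher. Ighm (1.32-fold) and Ighd (1.92-fold) were under 2-fold, where 4.27% of 9571 genes were higher and 0.742% lower. For Igkc the call is partly fixed in advance, because the cells were sorted by kappa contig.

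A list of 30 genes of B cell development and antibody production was counted the same way. With no contig 27 could be compared, 5 were higher and 12 lower in deleted cells, with a median log2 ratio of -0.57 against -0.01 for all genes. Higher were the surrogate light-chain genes Igll1 (2777 against 1113 CPM) and Vpreb1 (2873 against 922), the recombination enzyme gene Dntt (1318 against 434), Mzb1 and the chaperone gene Hspa5 (607 against 223). Lower genes included Vpreb2, a further surrogate light-chain gene (0.382 against 118), Cd74, the invariant chain (1.73 against 982), Irf4, a factor of light-chain rearrangement (5.43 against 234), and the receptor kinase genes Syk (34.4 against 658) and Btk (3.36 against 135). With a heavy chain only, 7 were higher and 10 lower (median -0.22 against 0.00). Between heavy and kappa and heavy-only cells of control B220lo, 5 of 29 were higher and 0 lower (median 0.28 against 0.04): Ms4a1 (log2 ratio 3.90), Fcer2a (3.36), Jchain (2.81), Cd74 (2.80) and Cr2 (2.27).

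Genes whose levels ran most like the members were ranked by Pearson correlation of log2(CPM + 1) over 28 groups of cells, by library and class or contig state. The groups share libraries and depth, so the values are descriptions. Most like Ighm were Prkcb (0.951), Slamf6 and Arl5c (both 0.945), and most like Ighd were P2ry10b (0.969), Gpat3 (0.965) and Bank1 (0.961). Jchain (0.969) and Gm30211 (0.939) led for Igkc, and Gm30211 (0.972) and 2010309G21Rik (0.967) for summed Iglc1-3. 2010309G21Rik shares exon bases with Iglc3, and whether shared reads enter these correlations was not tested. Gm30211, whose span holds Igkc, stood at 998 CPM in heavy and kappa and 801 in heavy-only cells of control B220lo, against 0.518 and 1.11 CPM in deleted cells with no contig and with a heavy chain only.

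**Figure D5:**
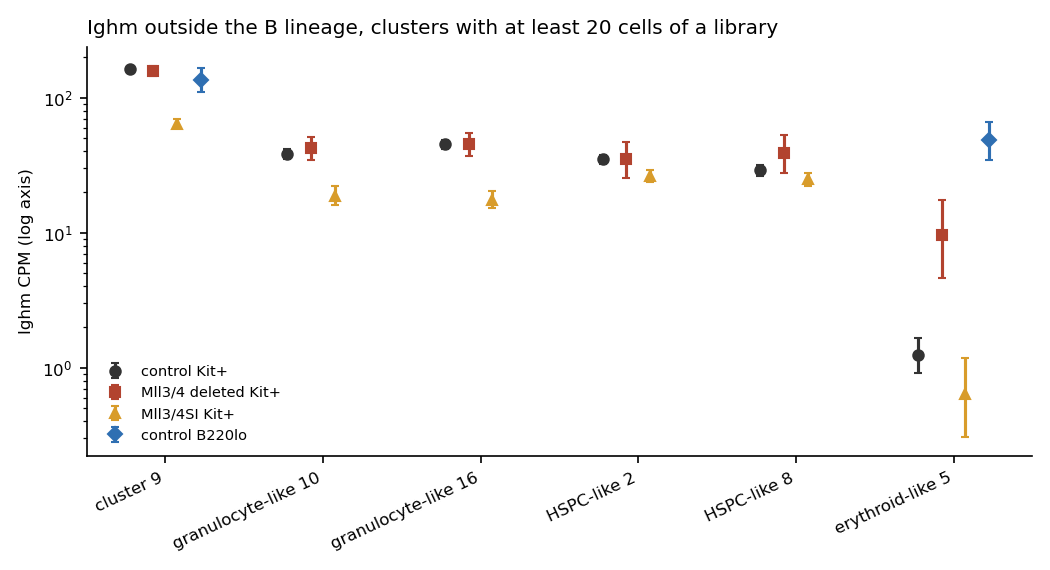
Ighm level (CPM, log axis) by library in cluster 9 (granulocyte and monocyte markers), granulocyte-like clusters 10 and 16, HSPC-like clusters 2 and 8 and erythroid-like cluster 5; bars are exact 95% Poisson intervals. In clusters 9, 10 and 16 SI Kit+ lies below control Kit+, at 64.3 against 163.7 CPM in cluster 9.

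Ighm was also counted outside the B lineage-like cells of the Kit+ libraries. Cluster 9 was named granulocyte-like from 5 markers, but its leading genes include F13a1 and Csf1r of the monocyte list beside Prtn3 and Elane of the granulocyte list (Elane 11214 and F13a1 727 CPM in control Kit+), so it is called by its number. In cluster 9 Ighm stood at 163.7 CPM (158.1 to 169.4) in control Kit+, in 86.2% of 1272 cells unthinned, at 157.8 (143.9 to 172.7) in deleted and at 64.3 (59.3 to 69.6) in SI Kit+. Erythroid-like cells of control Kit+ held an Ighm UMI in 2.35% of cells, at 1.92 CPM. Ighv genes stood at 2.11 CPM in control, 58.4 in deleted and 1.25 in SI cells of cluster 9, and Igkc and the lambda constants had at most 6 UMIs each in its control and SI cells.

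SI Kit+ held Ighm at 0.393 of the control Kit+ level in cluster 9 (0.360 to 0.428), 0.491 in cluster 10 (0.411 to 0.585) and 0.389 in cluster 16 (0.328 to 0.459). Ighm was counted as lower in clusters 9 and 16 and was under 2-fold in cluster 10, where 0.431%, 0.378% and 0.461% of genes were lower in clusters 9, 10 and 16. Of the list of 30 B cell genes, 9, 7 and 9 could be compared in these clusters, 0 were higher and 1, 0 and 1 lower. The lower gene was Cd74, at 1.56 against 7.39 CPM in cluster 9 and 0.590 against 7.32 in cluster 16. Genes with too few UMIs to be counted included Igll1 (2 UMIs in SI against 63 in control), Cd79a (1 against 27) and Dntt (0 against 26) in cluster 9. Not all went this way. Rag2, also with too few UMIs, stood at 1.04 CPM in SI against 0.553 in control in cluster 9. It stood at 3.72 against 1.40 in cluster 10 and 3.54 against 1.36 in cluster 16. Dntt stood at 1.51 against 1.53 in cluster 10, and Cd79b, which could be compared, at 54.7 against 54.1 in cluster 9. The part of these transcripts in the Ighm values was not tested. In HSPC-like cells the values lay closer, at 34.9 CPM in control, 34.9 in deleted and 26.3 in SI in cluster 2, and at 28.9, 38.6 and 24.8 in cluster 8. These clusters and this comparison were chosen after their values had been seen, and the libraries cannot be told apart from their genotypes.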

How the data were processed

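The authors deposited raw UMI counts per gene and barcode and tables of assembled receptor contigs for 4 libraries of CD45.2+ marrow (10x 5′ kit, version 2, per the labels). Cell Ranger 7.1.0 and mm10 are named in the submitters' processing notes; the V(D)J reference, strand setting and read length are not given in the sources used here. Totals were 163751605 (control Kit+), 130424242 (deleted), 166327773 (SI) and 85445426 (control B220lo) UMIs. No column of per-sample values was left unmapped.

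Barcodes with at least 1000 UMIs, 500 genes and at most 10% mitochondrial UMIs were kept (314, 176, 264 and 532 removed), and those with a Scrublet doublet score of 0.25 or more were removed (840, 1168, 580 and 949). Scanpy 1.11.5 (Python 3.11.15, leidenalg 0.10.2, scikit-learn 1.9.0) clustered them on 2000 variable genes and 30 components with 15 neighbours at resolution 1, giving 31 clusters. Immunoglobulin and T-cell receptor genes were left out of the variable genes. A cluster was named "-like" from marker lists where at least 3 markers were raised 2-fold and its leading genes did not go against the name; names were rebuilt here. Contig states came from productive contigs. UMIs were summed per group of cells and divided by all UMIs of those cells. Intervals used scipy 1.17.1, thinning drew 2000 UMIs per cell with a fixed seed (numpy 2.4.6, pandas 2.3.3), and figures used matplotlib 3.10.9. A count of 0 was given the limit from 3 counts. PCR duplicates are collapsed by UMI, and intervals cover counting error only.

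Each group had 1 library, so no test was made; genes were counted as 2-fold or more with 1 CPM added. On simulated data with 200 genes changed 4-fold, this step called 100% of them among 11165 genes (no contig) and 99.5% among 9747 (heavy only), and 0% of unchanged genes. The share of genes it calls between libraries of the same group was not tested, since no group had a further library. Sequences came from GENCODE M21 transcripts (GRCm38), aligned with Biopython 1.88. Named genes were the 6 members, other constant genes, a pathway list of 30 genes and the 5 genes most correlated with each member, of which the leading 2 or 3 are printed; members, lists and tests were chosen with earlier results of these data known. Alternatives were other cell filters, doublets kept, other thinning, contig minimums, a gate on UMIs, CPM without immunoglobulin UMIs, another pseudocount and other UMI minimums.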

Additional observations from a re-analysis of the deposited data

How the results depend on the processing

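Of 122 recomputed values over 23 results, 68 stayed within the counting interval or 1.5 times, and 54 moved. The 68 include Ighd per Ighm without immunoglobulin UMIs, which could not move. Nearly all were single levels, shares or counts, with no direction to reverse, and the member ratios between deleted and control B220lo cells were not recomputed. No paired analysis was possible because each group had 1 library. Shares of cells moved with the thinning depth and the UMI minimum. Without thinning and at 1000 UMIs, the share of deleted cells without a heavy contig that held Ighm was 81.1% and 29.7% (48.0% at 2000), for Igkc without a kappa contig in control B220lo 26.9% and 10.4% (18.4%), for Iglc1-3 without a lambda contig 54.9% and 38.7% (48.6%), and in heavy and kappa cells 56.6% and 26.6% for Igkc (43.2%) and 55.5% and 29.7% for Iglc3 (45.9%). Asking for at least 3 and at least 10 UMIs gave 6.31% and 0.0105% for Ighm, 0.826% and 0.0201% for Igkc, and 26.8% and 4.42% for Iglc1-3. With contigs of at least 3 UMIs, heavy and kappa cells held Igkc at 391 CPM and in 46.8% of cells, Iglc3 at 391 CPM and in 47.8%, and an Igkc share of 25.02%, with 4.64% in heavy and lambda cells. The gate on UMIs gave 866 CPM for Igkc, 352 for Iglc3 and a 42.6% Igkc share in heavy and kappa cells, and 324 CPM for Ighm in deleted cells with no contig. All deposited barcodes and doublets kept gave the library Igkc level of control B220lo as 429.9 CPM in both, its heavy and kappa level as 329 CPM in both and the Igkc share as 23.4% in both. The stricter cell filter gave 467 CPM for library Igkc and 354 for Iglc3 in heavy and kappa cells. CPM without immunoglobulin UMIs gave 469 for library Igkc, and 335 for Ighm in all deleted and 333 in deleted no-contig cells. The lambda contig's gene dominated in 6.24% of cells, in 3.12% at over 90% and in 3.85% at 20 UMIs or more. With 10 CPM added, genes counted as changed were 1522 in place of 3018 (no contig), 1478 of 2559 (heavy only) and 214 of 480 (heavy and kappa).

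Added after seeing the data were 3 alternatives. Without cells with at least 10 Igha UMIs, Igkc was 189.8 CPM in the library and 288 in heavy and kappa cells, with a share of 21.04%. Between SI and control Kit+ cells, genes counted in clusters 9, 10 and 16 were 77, 71 and 82, against 35, 34 and 37 with 10 CPM added and 163, 166 and 178 with at least 20 UMIs. The Ighm ratio over shared clusters named granulocyte-like, cluster 9 among them, was 0.380, and 0.315, 0.336 and 0.336 with the stricter filter, with doublets kept and with all barcodes. The cause of these moves was not tested. The 3 values of Ighd per 100 Ighm UMIs did not move under the alternatives run. For them the alternative without immunoglobulin UMIs could not move a value, since it changes neither count. The number of B lineage-like cells without a contig, 18 in control and 7 in SI Kit+, limits what those libraries can show.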

Other observations

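Other constant genes were counted outside the 6 members. In control B220lo, Igha was found in 14.4% of heavy and kappa and 14.96% of heavy-only cells (unthinned), at 226 and 27.9 CPM, where 11 heavy and kappa cells and 0 heavy-only cells held at least 10 Igha UMIs and the highest held 879. NK or T-like cells, which should lack Igha, held it in 15.1% of cells, so the shares of cells are at background. Plasma cell-like cells held it at 20374 CPM beside Igkc at 10562 and Ighm at 251. Ighg1 had 423 UMIs in 7 heavy and kappa cells, 417 of them in 1 cell, and 1 UMI in heavy-only cells. In deleted cells with no contig, Igha had 2 UMIs and Ighg2b 4.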
